A study of Mus musculus with 23 samples.

Results

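Dbp, Tef, Hlf and Nfil3 encode the transcription factors that act on the D-box, a DNA element of the circadian clock. They were taken from the deposited expression table by their gene symbols, and all 4 are among the 14500 genes listed there and among the 12820 genes that were expressed highly enough to be tested. RNA was sequenced from the whole tibialis anterior, a mostly fast-twitch muscle at the front of the shin, of female C57BL/6 mice fed ad libitum, in 23 libraries that form 8 groups. The groups combine genotype, treatment and time of day, with zeitgeber time (ZT) 0 at lights on and ZT12 at lights off. Wild-type sham muscle gave 4 libraries at ZT0 and 3 at ZT12 from mice of 12 to 18 weeks, and wild-type 6-OHDA muscle gave 4 at each time from mice of 12 to 16 weeks. RE-RE mice are homozygous for the Bmal1 allele stopFL (stopFL/stopFL) and carry the transgenes Syt10-Cre (-/tg) and also Hsa-Cre (-/tg). In them Bmal1, listed as Arntl and encoding the main clock activator, is blocked by a stop sequence that Cre removes. Hsa-Cre acts in skeletal muscle fibres and Syt10-Cre in the suprachiasmatic nucleus and other neurons, so other cells of the muscle keep the stopped allele. RE-RE muscle gave 2 libraries at each time under each treatment, from mice of 10 to 11 weeks for sham and 12 to 18 weeks for 6-OHDA. Treated muscles received repeated local injections of 50 mg/kg 6-hydroxydopamine (6-OHDA), a toxin of sympathetic nerve endings, whereas sham muscles were not injected, so that the toxin and the injections cannot be told apart. The labels do not say whether libraries of a group came from separate animals, and p-values then measure only the spread between these libraries.

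Dbp, Tef and Hlf form the PAR bZip family and activate transcription from the D-box. Nfil3, also called E4bp4, is a related bZip protein that represses transcription from the same element. Dbp transcription is driven through E-boxes by the Bmal1 and Clock dimer, while Nfil3 is repressed by REV-ERB and activated by ROR proteins through ROR elements, so that activators and repressor peak at opposite phases. In liver and kidney the activators are known for controlling detoxification and fat metabolism genes, and D-boxes also lie in the clock genes themselves.

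By GRCm38 coordinates in the GENCODE M21 annotation, Dbp lies at chr7:45705088-45710203 on the plus strand, Tef at chr15:81802421-81826863 on the plus strand, Hlf at chr11:90336536-90390895 on the minus strand and Nfil3 at chr13:52967209-52981073 on the minus strand. All 4 are protein-coding genes. The last 737 bases of Dbp overlap Sphk2, which is transcribed from the opposite strand, and the first 193 bases of Tef overlap the antisense gene Gm17597. Whether counting used the strand is not stated, so reads in these overlaps cannot be assigned. In wild-type sham muscle Sphk2 stood at 2.51 ± 0.258 (SD, n = 3) FPKM at ZT12 against 3.73 ± 0.140 (SD, n = 4) FPKM at ZT0, but the log2 difference of -0.57 (SE 0.23) did not pass (limma adjusted p = 0.50).

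All 4 genes had a RefSeq promoter window on GRCm38.p6, running from 250 bases before to 50 after a transcription start, and Tef had 2. The stretches printed here hold the motif matches of these windows, with 12 bases on either side, cut off at the start, and with the match in capitals. The motifs searched on both strands were the E-box CACGTG, the D-boxes TTATGTAA and TTACGTAA, the ROR element core AGGTCA, its longer form TAGGTCA that contains the core, and the cyclic AMP response element TGACGTCA. The 2 Tef windows each held 1 E-box, which 7.15% of all 32851 windows hold, at chr15:81802534-81802563 and chr15:81811264-81811293.
Tef, upstream start: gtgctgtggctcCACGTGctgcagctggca
Tef, downstream start: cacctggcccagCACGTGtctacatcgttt
The Nfil3 window held 1 ROR element core 12 bases before its start, read on the gene's strand as TGACCT, at chr13:52981040-52981063. The core occurs in 16.3% of windows and the longer form, which is also matched here, in 2.61%.
Nfil3: ggcgctcggaacTGACCTactaac
The Hlf window held 1 cyclic AMP response element 9 bases before its start, at chr11:90390918-90390938, and 1.79% of windows hold one.
Hlf: cggtgcgggcccTGACGTCAc
GENCODE places the upstream Tef stretch and the Nfil3 stretch in a 5′ UTR that begins farther upstream than the RefSeq start. The Dbp window held none of the 6 motifs, which says only that these letters are absent from these 300 bases.

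Of the 9 clock genes listed as carrying a D-box, 8 had a window, and Per2 did not. Per3, a period gene of the clock's repressor limb, was the only one of the 8 whose window held the D-box TTATGTAA, found in 0.938% of all windows, and it held 2 copies, at chr4:151044804-151044882 on the minus strand. TTACGTAA, found in 0.119% of windows, occurred in none of them or of the D-box factors. Ciart, which encodes a repressor of the Bmal1 and Clock dimer, held 3 E-boxes at chr3:95882255-95882356 on the minus strand. These stretches are shown because Per3 and Ciart are the listed clock genes whose windows carry the same element more than once. A match is a description of letters and not evidence of binding.
Per3: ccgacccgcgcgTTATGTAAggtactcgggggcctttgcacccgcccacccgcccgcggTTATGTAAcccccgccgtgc
Ciart: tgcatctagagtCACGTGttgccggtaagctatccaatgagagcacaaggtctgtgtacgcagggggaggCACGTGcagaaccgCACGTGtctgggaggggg

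Depth was read from the smallest values of each library and came to 21.04 to 36.0 M reads, with a median of 27.9 M. The lowest number of reads behind any value was 42.0 for Hlf, 125 for Dbp, 206 for Nfil3 and 2584 for Tef, so Hlf is the least precisely measured of the 4. Fast fibre markers were abundant in every library, with 8 of 8 in the table and summed levels of 34650 to 71110 FPKM. In the 11 sham libraries the 6 macrophage markers summed to 15.6 to 56.9 FPKM and the 4 fibroblast markers to 100 to 477 FPKM, and in 11 of the 12 injected libraries they summed to 48.3 to 382.5 and 342 to 1092 FPKM. The other injected library, labelled RE-RE 6-OHDA ZT0 replicate 2, had the lowest macrophage sum of all 23, 11.2 FPKM, and a fibroblast sum of 104 FPKM, within the sham range. Its slow fibre sum of 128 FPKM over 5 markers lay above all sham libraries, at 47.5 to 114 FPKM. It was within the range of the other injected ones, at 83.6 to 499 FPKM. Its regenerating fibre and endothelial sums of 21.7 and 69.7 FPKM were within the sham ranges, at 13.5 to 38.8 and 27.1 to 93.35 FPKM. Both lay below the other injected libraries, at 32.7 to 158 and 77.5 to 119 FPKM. Its fast fibre sum of 71110 FPKM was the highest of all 23. Of these sums only that of slow fibre sided with injected muscle. RE-RE 6-OHDA ZT12 replicate 3 also lay within the sham ranges, with a macrophage sum of 48.3 FPKM and a fibroblast sum of 349 FPKM, while its slow fibre sum was 425 FPKM. RE-RE sham ZT0 replicate 1 and RE-RE sham ZT12 replicate 3 had the lowest endothelial sums, 31.2 and 27.1 FPKM over 4 markers. Residual spread was larger in RE-RE than in wild-type groups for 91.65% of tested genes, and its SD for the D-box factors was 1.32 to 2.39 times that in wild-type groups. In bulk RNA fewer cells of a type and less RNA per cell cannot be told apart. The fit pools the residual spread, so that it understates the error of RE-RE comparisons and overstates that of wild-type ones. Where groups or times are said not to overlap, the share of all genes that do the same was not counted. Such statements describe the values and are no test.

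Dbp, a well known output of the E-box clock in many tissues, rose from ZT0 to ZT12 in wild-type sham, wild-type 6-OHDA and RE-RE sham muscle. In wild-type sham muscle Dbp stood at 3.61, 2.68, 4.42 and 2.36 FPKM at ZT0. At ZT12 it stood at 35.1, 30.4 and 44.2 FPKM. Every ZT12 library was thus far above every ZT0 library, and the log2 difference of 3.51 (SE 0.33) corresponds to 11.4-fold (limma adjusted p = 1.7e-05). In wild-type 6-OHDA muscle Dbp stood at 3.90, 4.07, 3.23 and 3.33 FPKM at ZT0 and at 32.5, 27.2, 36.8 and 49.0 FPKM at ZT12. The injected libraries covered nearly the same FPKM levels as the sham ones at both times, and the log2 difference was 3.29 (SE 0.31, limma adjusted p = 1.4e-05).

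In RE-RE sham muscle Dbp stood at 2.93 and 5.604 FPKM at ZT0 and at 23.7 and 24.0 FPKM at ZT12. Both ZT12 values lay below the lowest wild-type ZT12 value of 27.2 FPKM, while the log2 difference of 2.55 (SE 0.43) passed the test (limma adjusted p = 0.027). It no longer passed without RE-RE sham ZT0 replicate 1 (log2 difference 2.09, limma adjusted p = 0.15) or without RE-RE sham ZT12 replicate 3 (2.56, limma adjusted p = 0.10). In RE-RE 6-OHDA muscle Dbp stood at 3.79 and 13.1 FPKM at ZT0 and at 27.9 and 19.0 FPKM at ZT12. The value of 13.1 FPKM, the highest of all 12 ZT0 libraries, belongs to the library with the lowest macrophage sum. With it the log2 difference was 1.71 (SE 0.43) and did not pass (limma adjusted p = 0.12). Without it, which leaves 1 ZT0 library, the difference was 2.60. Over all groups the 11 ZT12 libraries, at 19.0 to 49.0 FPKM, did not overlap with the 12 ZT0 libraries, at 2.36 to 13.1 FPKM.

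**Figure D1:**
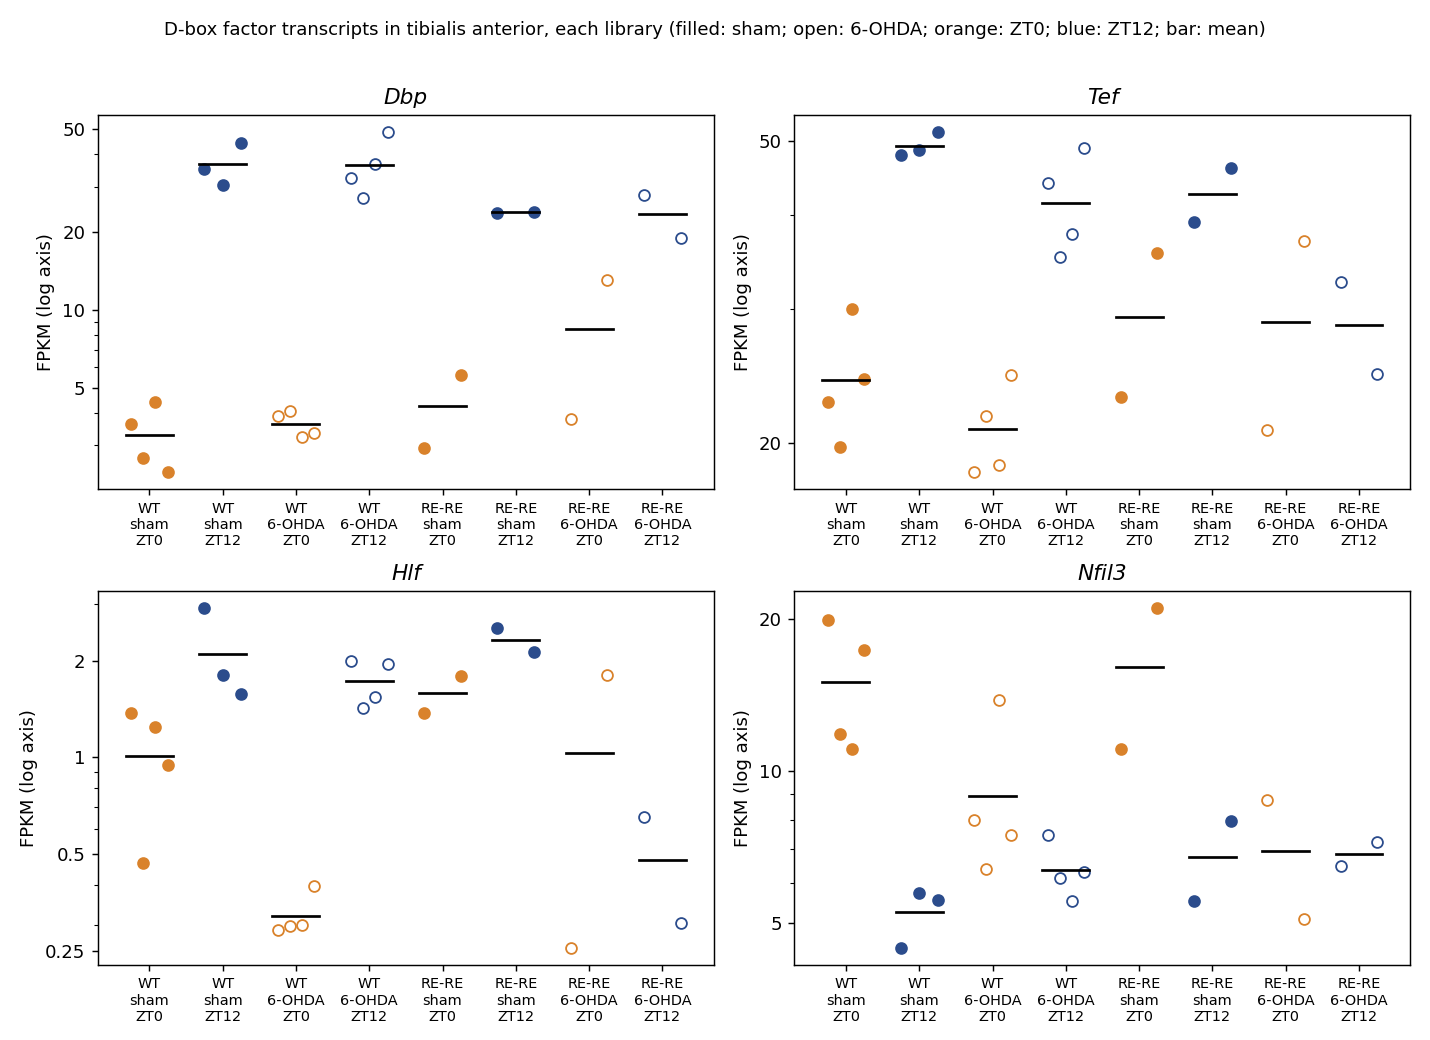
Each point is 1 library and gives the FPKM of Dbp, Tef, Hlf or Nfil3 on a log axis, by genotype, treatment and time, and the bar is the group mean. Dbp at ZT12 (19.0 to 49.0 FPKM) lies above every ZT0 library, whereas Hlf in wild-type 6-OHDA muscle at ZT0 (0.291 to 0.397 FPKM) lies below every sham library.

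Tef was the most abundant of the 4, by length-corrected level, in both sets of wild-type sham libraries. It stood at 22.7, 19.8, 30.0 and 24.3 FPKM at ZT0 and at 47.9, 48.6 and 51.4 FPKM at ZT12 in wild-type sham muscle. All ZT12 libraries exceeded all ZT0 libraries, and Tef rose by 1.04 on the log2 scale (SE 0.20, 2.06-fold, limma adjusted p = 0.015). With 6-OHDA, wild-type Tef stood at 18.3, 21.7, 18.7 and 24.6 FPKM at ZT0 and at 44.0, 35.2, 37.7 and 48.9 FPKM at ZT12. The times again did not overlap, and the log2 difference was 0.99 (SE 0.19, limma adjusted p = 0.013). In sham muscle the call was lost when any 1 of ZT0 replicate 1 or 2 or ZT12 replicate 5, 6 or 7 was left out, with log2 differences of 0.95 to 1.06 and limma adjusted p of 0.051 to 0.098. In injected muscle it was lost without ZT0 replicate 1 or 3 or ZT12 replicate 5 or 8, with log2 differences of 0.91 to 0.96 and limma adjusted p of 0.059 to 0.068.

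In RE-RE muscle the Tef levels of the 2 times lay closer together. RE-RE sham libraries stood at 22.98 and 35.6 FPKM at ZT0 and at 39.1 and 46.1 FPKM at ZT12, and the log2 difference of 0.57 (SE 0.26) did not pass (limma adjusted p = 0.96). RE-RE 6-OHDA libraries stood at 20.8 and 36.9 FPKM at ZT0 and at 32.6 and 24.7 FPKM at ZT12. These times overlapped, and the log2 difference of 0.03 (SE 0.26, limma adjusted p = 0.97) became 0.45 without the library with the lowest macrophage sum, which holds the value of 36.9 FPKM, and turned to -0.38 without RE-RE 6-OHDA ZT0 replicate 1 and to -0.17 without ZT12 replicate 3.

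Hlf, which encodes the PAR bZip factor first known from a leukaemia fusion gene, was present at the lowest level of the 4 in all 23 libraries. In wild-type sham muscle it stood at 1.37, 0.468, 1.24 and 0.948 FPKM at ZT0 and at 2.92, 1.81 and 1.57 FPKM at ZT12. The times did not overlap, but the log2 difference of 1.11 (SE 0.48) did not pass over all genes (limma adjusted p = 0.62, unadjusted p = 0.032). With 6-OHDA, wild-type Hlf stood at 0.291, 0.298, 0.300 and 0.397 FPKM at ZT0 and at 2.00, 1.42, 1.54 and 1.95 FPKM at ZT12. The times did not overlap, and Hlf rose by 2.39 on the log2 scale (SE 0.44, 5.23-fold, limma adjusted p = 0.012). The call was lost without ZT12 replicate 5 (log2 difference 2.31, limma adjusted p = 0.061) or replicate 8 (2.32, limma adjusted p = 0.051).

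In RE-RE sham muscle Hlf stood at 1.38 and 1.79 FPKM at ZT0 and at 2.52 and 2.13 FPKM at ZT12, and the log2 difference of 0.56 (SE 0.62) did not pass (limma adjusted p = 1.0). In RE-RE 6-OHDA muscle it stood at 0.255 and 1.81 FPKM at ZT0 and at 0.654 and 0.305 FPKM at ZT12. The lone high value comes from the library with the lowest macrophage sum, and the other 3 injected RE-RE libraries were all at or under 0.654 FPKM, at both times. The log2 difference was -0.60 (SE 0.62, limma adjusted p = 0.67) with that library and 0.78 without it. Without ZT0 replicate 1 in its place the difference was -1.99, so the 2 ZT0 libraries set the sign. Either fit leaves 1 ZT0 library, so only the sizes are given.

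Nfil3, the D-box repressor, was lower at ZT12 than at ZT0 in wild-type sham muscle, opposite to Dbp and Tef. It stood at 19.9, 11.8, 11.1 and 17.3 FPKM at ZT0 and at 4.46, 5.73 and 5.55 FPKM at ZT12. The times did not overlap, and Nfil3 fell by 1.48 on the log2 scale (SE 0.28, limma adjusted p = 0.013). The call was lost without ZT0 replicate 1 or ZT12 replicate 5, 6 or 7, with log2 differences of -1.55 to -1.33 and limma adjusted p of 0.051 to 0.095. It was also lost when libraries were scaled by their own totals of recovered reads (log2 difference -1.46, limma adjusted p = 0.064).

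In wild-type 6-OHDA muscle Nfil3 stood at 7.99, 6.40, 13.8 and 7.46 FPKM at ZT0 and at 7.48, 6.14, 5.52 and 6.31 FPKM at ZT12. The times overlapped, with only ZT0 replicate 3 standing at a level seen in sham muscle at ZT0, and the log2 difference of -0.43 (SE 0.26) did not pass (limma adjusted p = 0.82). RE-RE sham muscle stood at 11.1 and 21.1 FPKM at ZT0 and at 5.53 and 7.97 FPKM at ZT12. These times, with 2 libraries each, did not overlap, which so few libraries can do without a time effect. The log2 difference of -1.20 (SE 0.37) did not pass (limma adjusted p = 0.51, unadjusted p = 0.0040). RE-RE 6-OHDA muscle stood at 8.77 and 5.10 FPKM at ZT0 and at 6.47 and 7.23 FPKM at ZT12, with a log2 difference of 0.03 (SE 0.37, limma adjusted p = 0.98), or -0.36 without the library with the lowest macrophage sum.

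Counted together, 3 of the 4 D-box factors passed the time test in wild-type sham muscle, 2 higher and 1 lower at ZT12, where 0.647% of the 12820 tested genes passed. Under 6-OHDA 3 of 4 passed in wild-type muscle, all higher, against 0.671% of tested genes. In RE-RE sham muscle 1 of 4 passed against 0.0546%. In RE-RE 6-OHDA muscle 0 of 4 passed with limma, and 0 with limma-voom on recovered reads, against 0.109%, while 1 of 4 had an unadjusted p under 0.05. The sham count was 1 without any 1 of ZT0 replicate 1 or ZT12 replicates 5, 6 and 7, the wild-type 6-OHDA count was 1 without ZT12 replicate 5 or 8, and the RE-RE sham count was 0 without ZT0 replicate 1 or ZT12 replicate 3. Tef alone was also lost without wild-type sham ZT0 replicate 2 and without wild-type 6-OHDA ZT0 replicate 1 or 3, which lowers the counts there too. Dbp passed with every one of these wild-type libraries left out. Without RE-RE 6-OHDA ZT0 replicate 1 the Hlf difference of that arm was -1.99. Without the library with the lowest macrophage sum its Dbp difference was 2.60. Either fit leaves 1 ZT0 library, so no count is given for it.

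**Figure D2:**
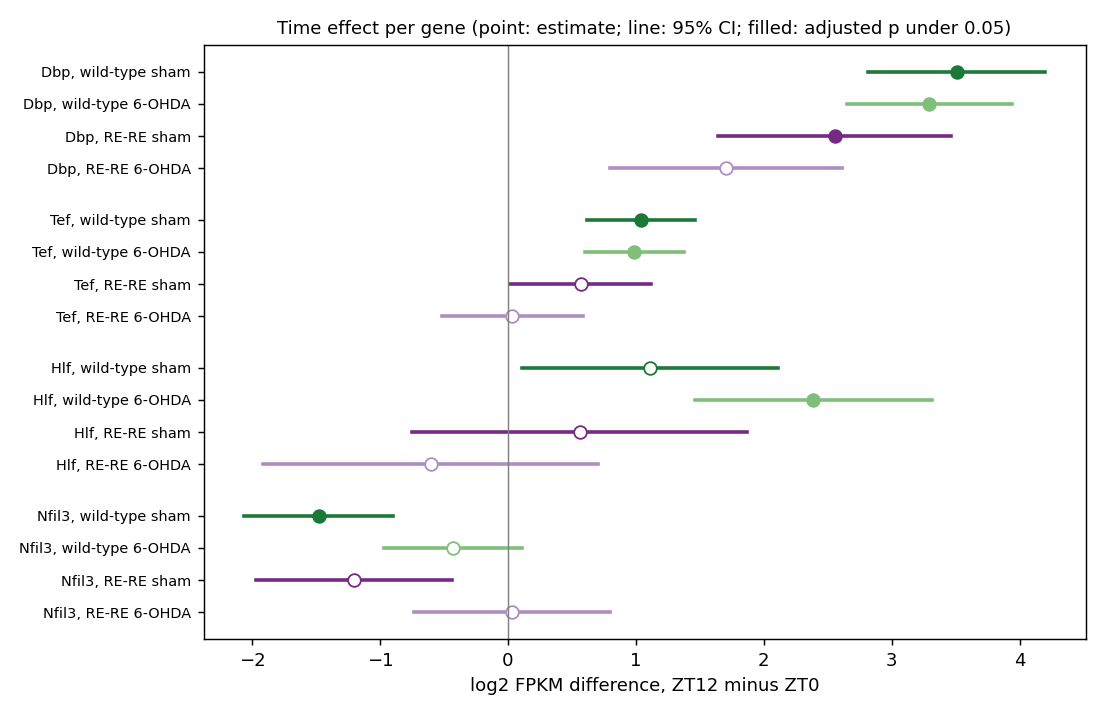
Points are log2 differences, ZT12 minus ZT0, for each D-box factor in each genotype and treatment, lines are 95% confidence intervals from the fit and filled points passed the test. Dbp differences run from 1.71 in RE-RE 6-OHDA to 3.51 in wild-type sham muscle, and the Nfil3 difference is below 0 in wild-type sham muscle and near 0 in RE-RE 6-OHDA muscle.

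The makeup of the activator pool differed between the times. Tef supplied 82.0% to 88.0% of the summed FPKM of Dbp, Tef and Hlf in the wild-type sham libraries of ZT0 and 52.9% to 60.1% in those of ZT12, while Dbp supplied 8.55% to 13.0% at ZT0 and 37.7% to 45.5% at ZT12. The Hlf share was 1.62% to 4.96% over both times. In wild-type 6-OHDA muscle the Tef share was 81.4% to 86.9% at ZT0 and 49.0% to 56.0% at ZT12, and the Hlf share was 1.15% to 1.40% at ZT0 and 1.96% to 2.55% at ZT12. The order of the 3 activators by level, Tef then Dbp then Hlf, was the same in the means of all wild-type groups.

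The ratio of summed activator FPKM to Nfil3 FPKM joins both sides of the D-box. In wild-type sham muscle it was 1.39 to 3.23 at ZT0 and 14.1 to 19.2 at ZT12, and in wild-type 6-OHDA muscle it was 1.61 to 4.07 and 10.4 to 15.8. In RE-RE sham muscle it was 2.04 to 2.47 at ZT0 and 9.05 to 11.8 at ZT12. In RE-RE 6-OHDA muscle it was 2.83 in ZT0 replicate 1, 10.2 in the library with the lowest macrophage sum, and 6.09 to 9.46 at ZT12. The ZT12 libraries exceeded the ZT0 libraries of the same group pair in 3 of the 4 pairs, and RE-RE 6-OHDA muscle was the pair that overlapped. These ratios restate the levels of the 4 genes and were not tested, and they compare transcripts, not proteins.

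**Figure D3:**
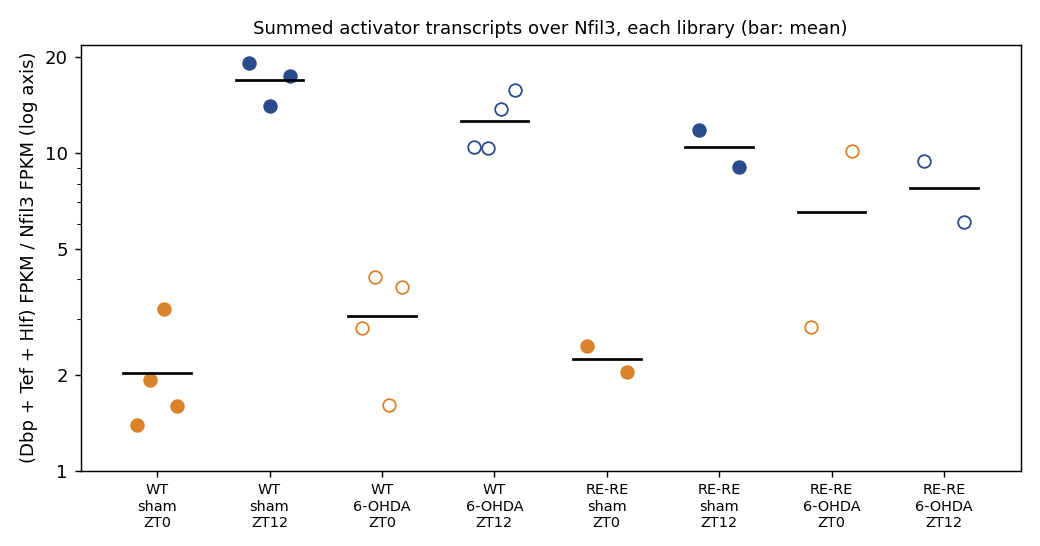
Each point is 1 library and gives the summed FPKM of Dbp, Tef and Hlf divided by the FPKM of Nfil3 on a log axis, with the group mean as a bar. Wild-type libraries run from 1.39 to 4.07 at ZT0 and from 10.4 to 19.2 at ZT12, and 1 RE-RE 6-OHDA ZT0 library stands at 10.2.

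The question of the 6-OHDA comparison is, by the title of the study, what sympathectomy does to the muscle clock. In wild-type muscle at ZT0, Hlf fell by 1.52 on the log2 scale (SE 0.44, 2.87-fold, limma adjusted p = 0.021) and Nfil3 fell by 0.77 (SE 0.26, limma adjusted p = 0.038). All 4 injected Hlf values, 0.291 to 0.397 FPKM, were below all 4 sham values, 0.468 to 1.37 FPKM. Nfil3 overlapped, since the injected value of 13.8 FPKM exceeded the sham values of 11.8 and 11.1 FPKM. Dbp (log2 difference 0.19, SE 0.31) and Tef (-0.21, SE 0.19) did not pass. Thus 2 of 4 passed, both lower, where 23.8% of tested genes passed. At ZT12 in wild-type muscle 0 of 4 passed with limma or with limma-voom, 0 had an unadjusted p under 0.05, and log2 differences ran from -0.26 to 0.28, against 0.0156% of tested genes. As the mean of both times 1 of 4, Hlf, passed (log2 difference -0.88, SE 0.33, limma adjusted p = 0.043) against 34.8% of tested genes.

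These calls are close to the threshold. Hlf at ZT0 no longer passed without sham replicate 1 or 3 or 6-OHDA replicate 1 or 3, with log2 differences of -1.49 to -1.34 and limma adjusted p of 0.052 to 0.069. With the replicate number as a block Nfil3 did not pass (-0.77, limma adjusted p = 0.088). Nfil3 at ZT0 also no longer passed without sham replicate 1 or 4 or 6-OHDA replicate 1, 2 or 4, with log2 differences of -0.74 to -0.62 and limma adjusted p of 0.072 to 0.12. The scaling between treatments also matters. With libraries scaled by their own totals of recovered reads, 6-OHDA differences moved upward, to -0.36 for Nfil3 (limma adjusted p = 0.37) and from -0.21 to 0.20 for Tef at ZT0, and the mean Hlf difference became -0.55 (limma adjusted p = 0.12). The mean Hlf call was lost without any 1 of 12 of the 15 wild-type libraries, with log2 differences of -0.92 to -0.75.

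In RE-RE muscle, as the mean of both times, Hlf fell by 1.77 on the log2 scale (SE 0.44, 3.40-fold, limma adjusted p = 0.017), and it was the 1 of 4 that passed where 26.9% of tested genes did. RE-RE sham mice were 10 to 11 weeks old and RE-RE 6-OHDA mice 12 to 18, so age and treatment cannot be told apart here. The sham libraries stood at 1.38 to 2.52 FPKM, and of the injected ones only the library with the lowest macrophage sum, at 1.81 FPKM, lay in that range. Without that library, which leaves 1 library in its group, the log2 difference was -2.46. The call was lost without RE-RE sham ZT0 replicate 1, sham ZT12 replicate 3, 6-OHDA ZT0 replicate 1 or 6-OHDA ZT12 replicate 4, with log2 differences of -1.86 to -1.07. Tef had a log2 difference of -0.31 (SE 0.19, limma adjusted p = 0.19) with that library and -0.52 without it. Nfil3 had a log2 difference of -0.57 (SE 0.26, limma adjusted p = 0.094) and Dbp one of 0.37 (SE 0.31, limma adjusted p = 0.34), or -0.07 without that library.

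**Figure D4:**
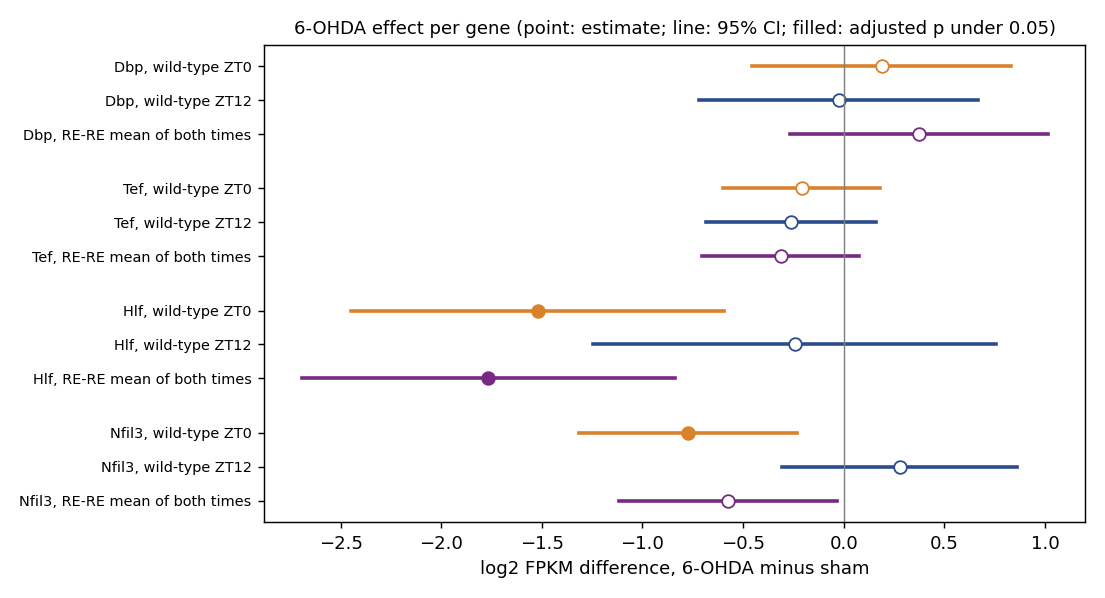
Points are log2 differences, 6-OHDA minus sham, for each D-box factor in wild-type muscle at ZT0, in wild-type muscle at ZT12 and in RE-RE muscle as the mean of both times, lines are 95% confidence intervals and filled points passed the test. Hlf is lower by 1.52 in wild-type muscle at ZT0 and by 1.77 in RE-RE muscle, and Dbp lies near 0 in wild-type muscle.

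Other cell types moved with the injections. In wild-type muscle at ZT0, 5 of 6 macrophage, 3 of 4 fibroblast, 4 of 5 regenerating fibre and 3 of 5 slow fibre markers rose, and 6 of 8 fast fibre markers fell. Summed over both times, fast fibre markers ran from 34650 to 50640 FPKM in injected and from 55300 to 68650 FPKM in sham wild-type libraries, macrophage markers from 96.7 to 382.5 against 15.6 to 40.5 FPKM, and fibroblast markers from 342 to 1092 against 100 to 253 FPKM. Of 7 lymphocyte and natural killer cell markers 2 were in the table, and their sum did not exceed 2.02 FPKM in any library. Per 10000 summed fast fibre FPKM, Hlf at ZT0 was 0.0694 to 0.200 in sham and 0.0695 to 0.0843 in injected wild-type muscle. Its means were 0.1515 in sham and 0.0778 in injected muscle. Nfil3 at ZT0 was 1.63 to 2.90 in sham and 1.49 to 3.39 in injected muscle, with means of 2.275 and 2.194. Both genes overlapped on this scale, though the Hlf mean stayed lower in injected muscle. On the same scale Tef at ZT0 was 2.93 to 4.42 in sham and 4.59 to 5.29 in injected muscle, without overlap and in the opposite order to its FPKM means. Dbp at ZT0, which overlapped in FPKM, was 0.384 to 0.650 in sham and 0.708 to 1.13 in injected muscle on this scale, without overlap and with means of 0.489 and 0.893. At ZT12 Nfil3 was 0.771 to 1.04 in sham and 1.25 to 1.68 in injected muscle, again without overlap, whereas Dbp, Tef and Hlf overlapped. The fast fibre sums themselves did not overlap at ZT0, at 61570 to 68650 FPKM in sham and 34650 to 47050 FPKM in injected muscle. At ZT12 they were 55300 to 67300 and 36670 to 50640 FPKM. Dividing by them raises a gene of unchanged FPKM in injected muscle, so a lack of overlap on this scale is no separate result. The share of all genes that separate on it was not counted. The part of the cell types in these 6-OHDA differences was not tested.

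**Figure D5:**
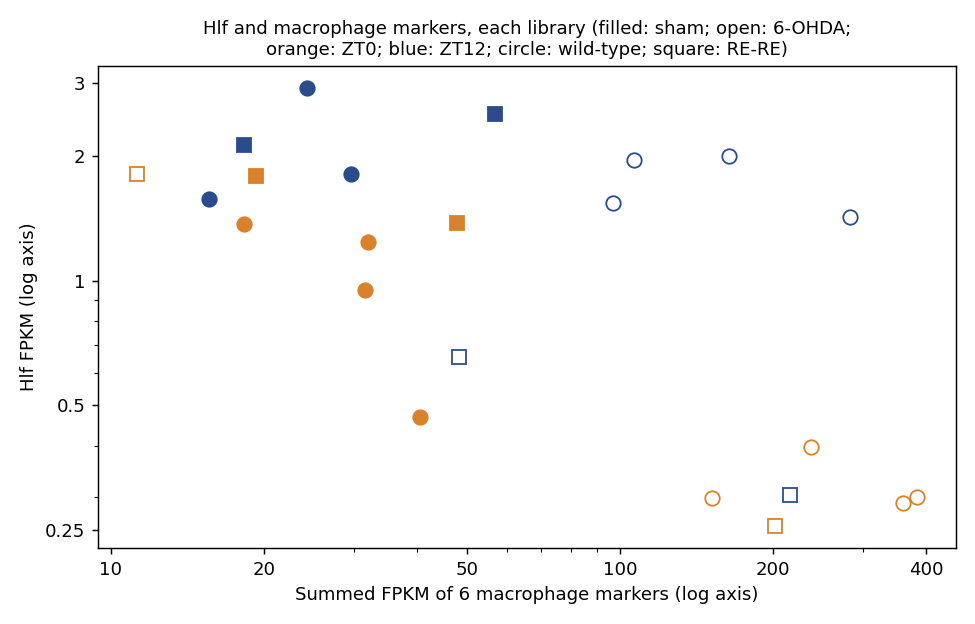
Each point is 1 library, with the summed FPKM of 6 macrophage markers across and the Hlf FPKM upward, both on log axes. The 4 wild-type 6-OHDA ZT12 libraries combine macrophage sums of at least 96.7 FPKM with Hlf of 1.42 to 2.00 FPKM, the 4 wild-type 6-OHDA ZT0 libraries have Hlf of at most 0.397 FPKM, and 1 RE-RE 6-OHDA ZT0 library lies farthest left with a macrophage sum of 11.2 FPKM.

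Whether 6-OHDA changed the time effect was tested as an interaction. In wild-type muscle 0 of 4 passed with limma or limma-voom, against 0.0078% of tested genes, and 1 of 4 had an unadjusted p under 0.05. That gene was Nfil3, with an estimated change of 1.05 (SE 0.38, unadjusted p = 0.012, limma adjusted p = 1.0). For Hlf the change was 1.28 (SE 0.65), for Dbp -0.21 (SE 0.45, 95% interval -1.16 to 0.73) and for Tef -0.05 (SE 0.27, 95% interval -0.63 to 0.52). The passing of Nfil3 in sham and not in injected muscle, and of Hlf in injected and not in sham muscle, is therefore not shown to be a difference between treatments. In RE-RE muscle 0 of 4 passed, by limma or limma-voom, against 0.0156%, with changes of -1.16 to 1.23, and 1 had an unadjusted p under 0.05.

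Between the genotypes, 0 of 4 passed the limma test of mean level in sham muscle, where 9.91% of tested genes did, and 0 of 4 in 6-OHDA muscle, where 0.226% did. The log2 differences ran from -0.12 to 0.47 in sham and from -0.42 to 0.17 in 6-OHDA muscle, and none had an unadjusted p under 0.05 or passed with limma-voom. Arntl, the gene altered in RE-RE mice, did not pass in mean level either. Its log2 difference was 0.28 (SE 0.15) in sham muscle and 0.49 (SE 0.15, limma adjusted p = 0.25) in 6-OHDA muscle. RE-RE sham mice were 10 to 11 weeks old and wild-type sham mice 12 to 18, so age and genotype cannot be told apart there.

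For the 3 activators the estimated time effect of RE-RE muscle was below that of wild-type muscle, but no genotype change passed. As the mean of both treatments the change was -1.27 for Dbp (SE 0.38, unadjusted p = 0.0035, limma adjusted p = 0.27), -0.71 for Tef (SE 0.23, limma adjusted p = 0.31) and -1.77 for Hlf (SE 0.55, limma adjusted p = 0.29). For Nfil3 it was 0.37 (SE 0.32, limma adjusted p = 0.69). So 0 of 4 passed with limma or limma-voom against 0.117% of tested genes, and 3 of 4 had an unadjusted p under 0.05. Arntl, which is not one of the 4, had a change of 1.03 (SE 0.21) that did not pass (limma adjusted p = 0.061). Within sham muscle 0 of 4 passed against 0.0156%, and none had an unadjusted p under 0.05. Within 6-OHDA muscle 0 of 4 passed against 0.0546%, and 3 had an unadjusted p under 0.05. Without RE-RE 6-OHDA ZT0 replicate 1, which leaves the library with the lowest macrophage sum as the only one of its group, the changes of Dbp, Tef and Hlf were -1.72, -0.92 and -2.46. Without the library with the lowest macrophage sum they were -0.82, -0.51 and -1.08. Either fit leaves 1 library in that group, so only the sizes are given.

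By group means Dbp ran from 3.27 FPKM in wild-type sham ZT0 muscle up to 36.6 FPKM in wild-type sham ZT12 muscle, with 5 of the 7 neighbouring pairs of groups overlapping. The 2 gaps lay between RE-RE 6-OHDA ZT0 and RE-RE 6-OHDA ZT12 muscle and between RE-RE sham ZT12 and wild-type 6-OHDA ZT12 muscle. Tef ran from 20.8 FPKM in wild-type 6-OHDA ZT0 to 49.3 FPKM in wild-type sham ZT12 muscle, and 6 of 7 neighbours overlapped. Hlf ran from 0.321 FPKM in wild-type 6-OHDA ZT0 to 2.32 FPKM in RE-RE sham ZT12 muscle, and Nfil3 from 5.25 FPKM in wild-type sham ZT12 to 16.1 FPKM in RE-RE sham ZT0 muscle, with 7 of 7 neighbours overlapping for both.

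After each group's mean was removed, the 3 activators varied together from library to library. Over all 23 libraries Pearson's r of these deviations was 0.81 for Dbp and Tef, 0.74 for Dbp and Hlf and 0.75 for Tef and Hlf, and over the 15 wild-type libraries it was 0.55, 0.35 and 0.58. Without the 2 libraries farthest out, the wild-type values for Dbp were 0.20 with Tef and 0.20 with Hlf, and Tef with Hlf was 0.52. Nfil3 deviations had r of -0.23 to -0.11 with the activators over all libraries, and of 0.03 to 0.13 without the 2 farthest out. Where a group holds 2 libraries their deviations mirror each other by construction. The genes of a library share its depth and cell makeup, so these values are descriptions.

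The genes whose log2 FPKM followed each factor most closely over the 23 libraries were looked up by Pearson's r, again as a description. For Dbp they were Per2 (r = 0.95) and Per3 (r = 0.93), which encode period repressors, and Usp2 (r = 0.94), a ubiquitin protease. For Tef they were Tle4 (r = 0.93), a corepressor, Maco1 (r = 0.93) and Acvr1b (r = 0.92), an activin receptor. For Hlf they were Nr1d2 (r = 0.92), which encodes a REV-ERB repressor, Cpeb3 (r = 0.91) and Pfkfb1 (r = 0.91). For Nfil3 the values were lower, with P4ha1 (r = 0.82), a collagen prolyl hydroxylase subunit, Pnpla3 (r = 0.81) and Relt (r = 0.79). After removal of group means, r with Dbp in the 15 wild-type libraries was 0.21 for Per2, 0.60 for Usp2 and 0.67 for Per3. With Tef it was 0.63 for Tle4, 0.37 for Maco1 and 0.87 for Acvr1b, and with Hlf it was 0.59 for Nr1d2, 0.59 for Cpeb3 and 0.61 for Pfkfb1. For the 3 genes listed for Nfil3 it was at most 0.35.

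Of 16 regulators that act on the D-box factors through E-boxes and ROR elements, 15 were tested, and Rorb was not in the table. In wild-type sham muscle 6 rose and 3 fell from ZT0 to ZT12, with a median log2 difference of 0.22 beside -0.01 over all genes. Arntl fell from 11.7 to 15.7 FPKM at ZT0 to 1.94 to 2.22 FPKM at ZT12 (log2 difference -2.79, limma adjusted p = 7.4e-08). Npas2, a Clock relative that pairs with Bmal1, fell (-3.41, limma adjusted p = 0.00017), while Per2 (3.20, limma adjusted p = 4.2e-05) and Ciart (1.89, limma adjusted p = 0.0022) rose. In wild-type 6-OHDA muscle 5 rose and 3 fell, led by Arntl (-2.74, limma adjusted p = 2.7e-08), Ciart (2.67, limma adjusted p = 1.8e-05), Npas2 (-3.38, limma adjusted p = 7.3e-05) and Per2 (2.68, limma adjusted p = 0.00012). In RE-RE sham muscle Ciart rose (2.37) and Arntl fell (-1.88), and in RE-RE 6-OHDA muscle only Arntl passed (-1.59, limma adjusted p = 0.012). Thus Arntl, which encodes part of the E-box activator of Dbp, was high at ZT0 in all 4 arms, the phase opposite to Dbp. With 6-OHDA in wild-type muscle 4 of the 15 fell and 0 rose as the mean of both times, where 34.8% of tested genes passed. Arntl was among them (-0.50, SE 0.12, limma adjusted p = 0.0061). Its difference was -0.53 at ZT0 (limma adjusted p = 0.032) and -0.47 at ZT12, which did not pass (limma adjusted p = 0.17).

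Among the 9 clock genes known to carry a D-box, 8 were tested, and 4 rose in wild-type sham muscle (Per1, Per2, Per3 and Ciart) with a median log2 difference over the list of 1.43. The same 4 rose in wild-type 6-OHDA muscle, with a median of 1.59. In RE-RE muscle 1 (Ciart) rose under sham and 0 passed with limma under 6-OHDA, with medians of 0.84 and 0.42 and with 4 at an unadjusted p under 0.05 in each. These genes also carry E-boxes and so are not a readout of the D-box alone, and all 8 tested ones are also in the list of regulators.

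Of 14 PAR bZip output genes known from liver, kidney, brain and heart, 7 were tested, and 0 passed with limma in any of the 4 time comparisons. An unadjusted p under 0.05 was reached by 2 in wild-type sham, 2 in wild-type 6-OHDA, 0 in RE-RE sham and 1 in RE-RE 6-OHDA muscle. Acot2, which encodes a mitochondrial acyl-CoA thioesterase, had the largest estimate in wild-type sham muscle (log2 difference 1.20, SE 0.34, limma adjusted p = 0.16, named after its value was seen). It was also the 1 gene of RE-RE 6-OHDA muscle, with the opposite sign (-1.99, SE 0.45, limma adjusted p = 0.087). That estimate was -1.30 without the library with the lowest macrophage sum and -2.68 without ZT0 replicate 1. Either fit leaves 1 ZT0 library, so only the sizes are given. Acot2 ran from 3.02 to 4.16 FPKM at ZT0 and 6.72 to 10.4 FPKM at ZT12 in wild-type sham muscle, and stood at 9.14 and 23.9 FPKM at ZT0 and 3.49 and 3.96 FPKM at ZT12 in RE-RE 6-OHDA muscle. The genotype change of its time effect, as the mean of both treatments, passed (-2.45, SE 0.39, limma adjusted p = 0.011), and it was the only one of the 7 to do so, where 0.117% of all tested genes passed. That call held with each wild-type library left out in turn (limma adjusted p = 0.011 to 0.029). It did not hold with array weights (-2.42, limma adjusted p = 0.96) or with age as a covariate (-2.23, limma adjusted p = 0.059). With each RE-RE library left out in turn the change was -2.80 to -2.10. Acot2 has a close copy, Acot1, so its counts are uncertain.

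The list's median time effect was 0.50 in wild-type sham, 0.35 in wild-type 6-OHDA, -0.15 in RE-RE sham and -0.53 in RE-RE 6-OHDA muscle, beside medians near 0 over all genes. Over both times in wild-type muscle 2 of the 7 rose with 6-OHDA, Pdxk, the pyridoxal kinase gene (0.72, limma adjusted p = 0.0067), and Ppara, the fatty acid receptor gene (0.72, limma adjusted p = 0.029), a share near the 34.8% of all tested genes that passed this comparison.

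C/EBP proteins are bZip relatives whose sites resemble the D-box, and 5 of 6 of their genes were tested. In wild-type sham muscle 0 of 5 passed the time test with limma and 2 had an unadjusted p under 0.05, whereas in wild-type 6-OHDA muscle Cebpb (log2 difference 2.17, limma adjusted p = 0.0037) and Cebpd (1.30, limma adjusted p = 0.030) rose at ZT12. The sham estimates of 1.47 for Cebpb and 0.88 for Cebpd had the same sign. Over both times in wild-type muscle Cebpa rose with 6-OHDA (1.80, limma adjusted p = 0.0019) and Cebpb fell (-0.71, limma adjusted p = 0.033), so 2 of 5 passed where 34.8% of all tested genes did. Cebpa is also expressed in macrophages and adipocytes, and in this comparison 6 of 6 macrophage and 2 of 3 tested adipocyte markers rose. The part of these cells in the Cebpa and Cebpb differences was not tested.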

How the data were processed

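The authors deposited log2 FPKM, read fragments scaled to gene length and library size, as log2(FPKM + 0.01) for 14500 genes in 23 libraries. Per the submitters' processing notes the genome was GRCm38 and edgeR 3.30.0, HISAT2 2.1.0, featureCounts 1.6.2, FastQC 0.11.8 and Trim Galore 0.5.0 were used. Whether counting used the strand, and whether a factor between libraries was applied, is not given in the sources used here, and the scaling bears on 6-OHDA differences. Batches are not labelled.

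The deposited values were fitted in R 4.3.3 by limma 3.58.1, using a mean for each group, a trend in eBayes and spread pooled over the 8 groups. The 12820 genes that reached an FPKM of 1 in 2 or more libraries were tested, and a gene passed where its p, adjusted by Benjamini-Hochberg over all of them, was under 0.05. FPKM means and SD are on the linear scale. The fit was tested on simulated data.

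Read numbers were recovered from the smallest FPKM values and GENCODE M21 exon lengths. In each library 86.8% to 94.7% of values up to 20 reads came out whole within 0.1 read. The number of recovered reads divided by the library size that the FPKM values imply was 1.15 to 1.52 in sham and 0.839 to 1.36 in injected libraries.

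The members, gene lists, marker lists and tests were chosen with earlier results of these data known. Besides the members and Arntl, up to 4 genes of a list with the smallest p among those that passed a comparison were named, and the 3 genes most correlated with each member. Alternatives were quantile normalization, log2(FPKM + 1), a minimum of 1 for the mean log2 FPKM, no filter, own totals of recovered reads, limma-voom on those reads, array weights, age as a covariate, only the libraries compared, removal of the 3 RE-RE libraries that stand apart, a replicate block and leaving out each library. Tables used python 3.11.15, numpy 2.4.6 and pandas 2.3.3, and plots matplotlib 3.10.9. Raw reads and isoforms were not analysed here.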

Additional observations from a re-analysis of the deposited data

Results flagged for a closer look

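Hlf in wild-type 6-OHDA muscle at ZT0 had 1 library far from the other 3 on the log2 scale. Replicate 4 stood at 0.397 FPKM, and the others stood at 0.291, 0.298 and 0.300 FPKM, so that its gap to the nearest was 0.901 of the whole range of the group. It was the only such gap in the 12 sets of 4 libraries that were tested, the 4 D-box factors in 3 groups, and chance gives about 1 in 20 sets, or 0.6 of these 12. All 4 values lay below those of the sham libraries.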

How the results depend on the processing

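Hlf rests on few reads, the RE-RE groups on 2 libraries each, and the pooled spread suits neither genotype. Each alternative is set beside the values of the report, and the cause of a change was not tested.

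For the number of D-box factors that passed, the time count in wild-type sham muscle ran from 2 to 4 over the alternatives that kept every wild-type library. In wild-type 6-OHDA muscle it was 1 with age as a covariate. There 34 of 12820 tested genes passed, against 86 in the main fit. In RE-RE sham muscle it was 0 with array weights and with only the compared groups. Of 12820 tested genes 0 and 23 passed in these settings, against 7 in the main fit. The libraries that stand apart are RE-RE sham ZT0 replicate 1, RE-RE sham ZT12 replicate 3 and RE-RE 6-OHDA ZT0 replicate 2. Their removal leaves 1 library in each of these groups, so only differences are given for it. The mean 6-OHDA count in wild-type muscle was 0 with log2(FPKM + 1), with a minimum of 1 for the mean log2 FPKM (which removes Hlf from the test), with own totals and with limma-voom. The count was 2 with array weights, where 7611 of 12820 tested genes passed, against 4458 in the main fit. At ZT0 it was 1 with the stricter filter, own totals, limma-voom and only the compared groups. In RE-RE muscle it was 0 with the stricter filter, array weights, age and only the compared groups, and 2 with own totals and limma-voom. Of 12820 tested genes 0 passed there with array weights, 3 with age and 2 with only the compared groups, against 3446 in the main fit. With own totals 4460 passed, with limma-voom 3741 of 12769 and with the stricter filter 2739 of 8764.

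Among time effects, Hlf in wild-type sham muscle passed with array weights (1.23, limma adjusted p = 0.012). Nfil3 there did not pass with own totals (-1.46) or limma-voom (-1.46, limma adjusted p = 0.083). With age, Tef (0.98) and Hlf (2.26) in wild-type 6-OHDA muscle did not pass. Dbp in RE-RE sham muscle did not pass with array weights (2.55) or only the compared groups (2.55), and its difference was 2.09 with the libraries that stand apart removed. In RE-RE 6-OHDA muscle their removal gave 2.60 for Dbp, 0.78 for Hlf and -0.36 for Nfil3, and age gave -0.10 for Nfil3.

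Among 6-OHDA effects, Tef in wild-type muscle at ZT0 was 0.20 with own totals and 0.20 with limma-voom, and Nfil3 was -0.36 and -0.37, or -0.77 with only the compared groups (limma adjusted p = 0.055). In RE-RE muscle Dbp was 0.76 with own totals, 0.75 with limma-voom (limma adjusted p = 0.036 and 0.038) and -0.31 with the libraries removed, and Tef was 0.076, 0.076 and -0.74. Hlf in RE-RE muscle did not pass with array weights (-1.77), age (-1.54) or only the compared groups (-1.77). Its mean in wild-type muscle was -0.37 with log2(FPKM + 1), -0.55 with own totals and -0.56 with limma-voom. The 6-OHDA change of the Tef time effect in wild-type muscle was 0.12 with array weights.

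The replicate block used the sample numbers of the labels, which do not pair animals: deviations of same-numbered libraries correlated by -0.12 to 0.17 over 11 pairs. Where both groups hold 2 libraries the pairs of a time share 1 value by construction, which leaves 9 distinct correlations, of which 2 were over 0.1. With the block, 1 D-box factor passed for 6-OHDA in wild-type muscle at ZT0, where Nfil3 (-0.77) did not (limma adjusted p = 0.088), and no other call of the D-box factors changed.

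Leaving out 1 library at a time, counts ran from 1 to 3 for time in both wild-type arms. They ran from 0 to 1 for the mean 6-OHDA effect in wild-type muscle and from 0 to 2 for it at ZT0. Leaving out an RE-RE library leaves 1 in its group, so for comparisons with RE-RE muscle only differences are given here. Time effects ran from 0.95 to 1.15 for Tef and from -1.61 to -1.33 for Nfil3 in wild-type sham muscle, and from 0.91 to 1.07 for Tef and 2.31 to 2.49 for Hlf in wild-type 6-OHDA muscle. Dbp ran from 2.09 to 3.02 in RE-RE sham muscle. In RE-RE 6-OHDA muscle Dbp ran from 0.81 to 2.60, Tef from -0.38 to 0.45, Hlf from -1.99 to 0.78 and Nfil3 from -0.36 to 0.42. The 6-OHDA effect ran from -1.85 to -1.34 for Hlf and from -1.01 to -0.62 for Nfil3 in wild-type muscle at ZT0, and the mean Hlf effect from -1.05 to -0.75. In RE-RE muscle it ran from -0.073 to 0.82 for Dbp, from -0.52 to -0.11 for Tef and from -2.46 to -1.07 for Hlf. The 6-OHDA change of the Tef time effect ran from -0.16 to 0.04. The genotype change ran from -1.72 to -0.82 for Dbp, from -0.92 to -0.51 for Tef and from -2.46 to -1.08 for Hlf. Quantile normalization and no filter on low values left every one of these counts and values on the same side of the threshold and of 0.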
